A study of Mus musculus with 24 samples.

Results

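Npas4, Arnt and Arnt2 are 3 of the 19661 genes in the deposited expression table, and all 3 were found there by symbol. Their levels were compared in the dorsal hippocampus of 24 mice, with 1 RNA sequencing library per animal and 6 animals in each of 4 groups. Wild-type mice on the C57BL/6J background were either left in the home cage or sacrificed 30 minutes after Object Location Memory training, where mice learn the places of objects in an arena. Mice heterozygous for the Actl6b<tm1Grc> allele on the B6J.129S6 background, called Baf53b+/- here, were taken in the same 2 conditions. The 2 genotypes thus also differ in strain background. The allele is not limited to a cell type. By the sex assigned to each library, both sexes were in every group, but in the Baf53b+/- home cage group only animal 2401 was female. Age was not used here. Values are RPKM, reads scaled by gene length and library total, so levels of different genes can be set side by side.

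NPAS4 is a transcription factor of the bHLH-PAS family, proteins that bind DNA as pairs. Neurons make it after electrical activity and calcium entry, and it has been tied to inhibitory synapses and to memory in the hippocampus. It binds DNA with a general partner, ARNT or the closely related ARNT2, which is the main form in neurons. ARNT is also the partner of the hypoxia factors and of the aryl hydrocarbon receptor. Actl6b encodes BAF53b, a subunit of the chromatin remodelling complex found in neurons.

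In the mm9 coordinates of the deposited table, Npas4 (row Npas4) spans chromosome 19, 4984355 to 4989971. Arnt spans chromosome 3, 95238312 to 95301161, and Arnt2 spans chromosome 7, 91394789 to 91558469. The 250 bases before each start are shown because the inducible gene and its partners can be compared there for the letters of the cyclic AMP response element, a site known for calcium-driven transcription. They are RefSeq promoter sequences in the GRCm38.p6 build, whose coordinates differ from those of the table for Arnt and Arnt2. They are printed 5′ to 3′ on the strand of the gene, and capitals mark every TGACG on either strand, which reads CGTCA where it lies on the other strand. They come from chr19:4989972-4990221 on the minus strand, chr3:95434140-95434389 on the plus strand and chr7:84410039-84410288 on the minus strand.
Npas4: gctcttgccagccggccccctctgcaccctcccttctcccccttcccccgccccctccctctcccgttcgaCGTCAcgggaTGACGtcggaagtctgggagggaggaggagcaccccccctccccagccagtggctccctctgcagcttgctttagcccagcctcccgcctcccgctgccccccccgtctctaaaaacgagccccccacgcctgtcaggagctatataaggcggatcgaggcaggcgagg
Arnt: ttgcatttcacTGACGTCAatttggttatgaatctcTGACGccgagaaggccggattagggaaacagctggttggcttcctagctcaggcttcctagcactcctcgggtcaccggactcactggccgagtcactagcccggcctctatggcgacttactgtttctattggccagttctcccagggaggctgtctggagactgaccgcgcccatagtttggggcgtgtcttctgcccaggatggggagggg
Arnt2: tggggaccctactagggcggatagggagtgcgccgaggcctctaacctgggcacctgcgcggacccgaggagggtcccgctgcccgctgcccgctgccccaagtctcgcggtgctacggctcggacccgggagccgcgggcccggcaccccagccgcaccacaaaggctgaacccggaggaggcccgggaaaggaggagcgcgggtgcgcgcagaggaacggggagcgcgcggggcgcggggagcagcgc

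The Npas4 stretch holds TGACGTC 2 times, with first bases 181 and 169 bases before the start, once on each strand. On both strands, 2.782% of the 32851 RefSeq promoters of the same length hold TGACGTC at least once. It also holds TATATAA 28 bases before the start, as do 3.038% of promoters. The Arnt stretch holds 1 full palindrome TGACGTCA at 239 bases before the start, which 1.546% of promoters hold, and a further TGACG at 214 bases. The palindrome counts as 2 overlapping matches of TGACGTC and 2 of TGACG. The Arnt2 stretch holds no TGACG, which 17.77% of promoters hold. GC content was 68.8% for Npas4, 57.2% for Arnt and 75.6% for Arnt2, against a median of 52.4% over all promoters. The core GCGTG of the aryl hydrocarbon receptor site was found on either strand 44 bases before the start of Npas4 and 29 bases before that of Arnt, and 28.16% of promoters hold it. The hypoxia core ACGTG, held by 16.57% of promoters, the NPAS4 core TCGTG, held by 13.34%, and the clock site CACGTG, held by 6.021%, were not found in any of the 3 stretches. Neither were the AP-1 letters TGANTCA, held by 6.749%, the CArG box, held by 1.467%, or the MEF2 site, held by 2.919%. These are letter matches only, and binding was not measured.

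The tissue and the genotype were checked first. Summed neuron markers ranged from 3389 to 3978 RPKM over the libraries. Actl6b was 51.3 ± 1.26 RPKM (SD, n = 6) in wild-type home cage mice and 30.0 ± 1.44 in Baf53b+/- home cage mice. After training Actl6b was 50.8 ± 2.65 and 28.3 ± 1.47 RPKM. Every Baf53b+/- library was below every wild-type library, as the labels say. Depth recovered from the values was 28.4 to 46.9 M reads per library. Choroid plexus markers, from a tissue that lies in the ventricle beside the hippocampus, summed to 15.4 to 4769 RPKM. They exceeded 3 times the median of the 24 libraries in 9 of them, which lie in all 4 groups. Results that rest on these libraries are given with and without them. The 6 of them over 10 times the median also had the highest sums of thalamus and striatum markers, 63.3 to 73.8 RPKM. In all other libraries that sum was at most 55.9 RPKM.

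Npas4 rose after training in both genotypes, and the rise did not differ detectably between them. The ratio of group means was 3.08 in wild type and 3.51 in Baf53b+/-. Medians went from 1.46 to 3.71 RPKM in wild type and from 1.11 to 3.98 RPKM in Baf53b+/-. In wild-type home cage mice Npas4 was 2.23, 0.878, 1.28, 1.63, 1.68 and 1.28 RPKM. In trained wild-type mice it was 3.28, 3.69, 5.89, 2.66, 3.73 and 8.48 RPKM. The lowest trained animal was above the highest home cage animal, so these groups did not overlap, and one trained animal, 2436, stood highest of all 24. In Baf53b+/- home cage mice Npas4 was 0.724, 1.15, 1.73, 0.773, 1.07 and 1.75 RPKM. In trained Baf53b+/- mice it was 5.24, 6.23, 3.68, 2.99, 4.27 and 2.87 RPKM. These groups did not overlap either, and the trained animals of both genotypes covered much the same range.

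Group means of Npas4 were 1.50 ± 0.462 RPKM (SD, n = 6) and 4.62 ± 2.18 RPKM in wild type, home cage and trained, a ratio of 3.08. They were 1.20 ± 0.451 and 4.21 ± 1.32 RPKM in Baf53b+/-, a ratio of 3.51. In log2(RPKM + 0.5), a scale on which changes of low genes look smaller, the training difference in wild type was 1.29 ± 0.23 (SE, limma adjusted p = 0.00386). By this test 1.08% of the 12399 genes tested were called in wild type, 0.960% as higher, and in 1.24% the groups did not overlap in either direction. In Baf53b+/- the difference was 1.47 ± 0.23 (limma adjusted p = 0.00108), where 1.03% of genes were called, 0.887% as higher, and in 1.33% the groups did not overlap in either direction. Averaged over the genotypes Npas4 was 1.38 ± 0.17 higher (limma adjusted p = 9.17e-06), where 4.17% of genes were called, 3.26% as higher and 0.911% as lower. Npas4 ranked the fifth of 12399 genes by the size of its rise in each genotype. A two-sided exact permutation test of the mean RPKM gave p = 0.00216 in each genotype, the smallest that 924 splits can give, and 0.013 after adjustment over 12 tests of the 3 genes.

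**Figure D1:**
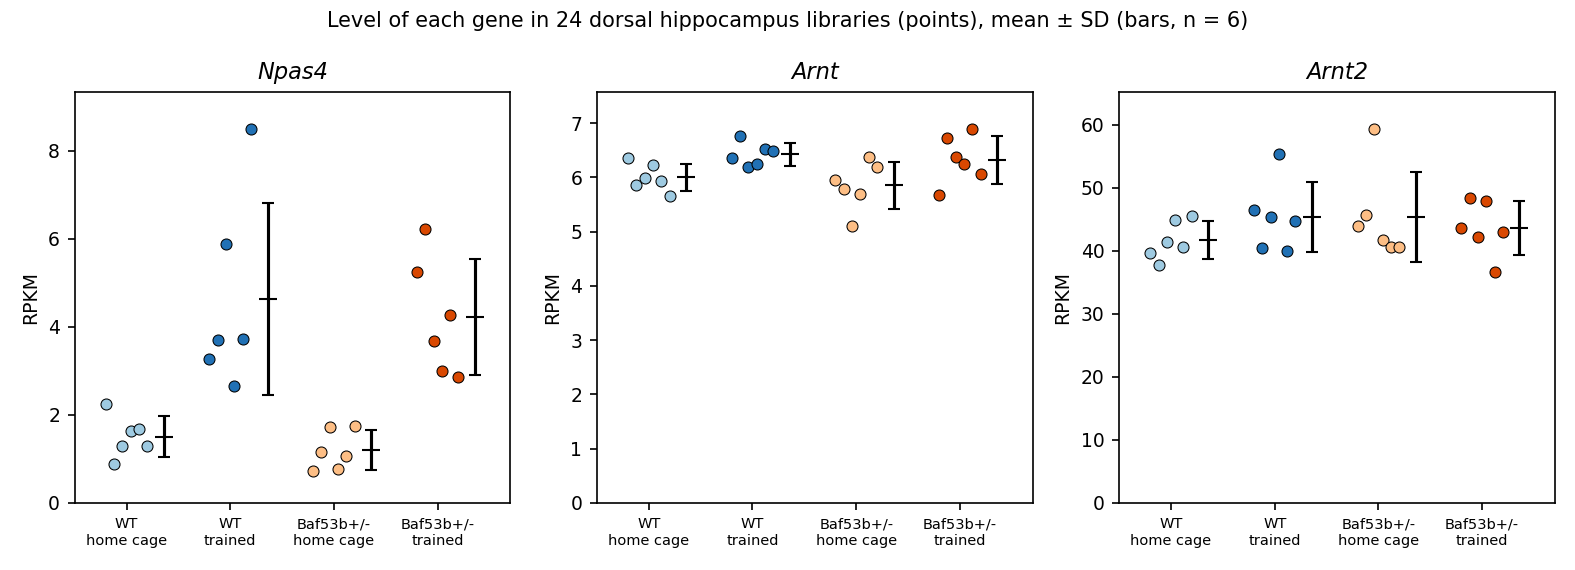
RPKM of Npas4, Arnt and Arnt2 in each of the 24 libraries (points, 6 per group), with the group mean and SD beside them; each vertical axis starts at 0. Trained animals lie above home cage animals for Npas4 in both genotypes (lowest trained 2.66 and 2.87, highest home cage 2.23 and 1.75 RPKM), while the groups overlap for Arnt and Arnt2.

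The 2 highest trained wild-type animals for Npas4, 2436 and 2412, were both among the libraries rich in choroid plexus markers, with summed levels of 204 and 1415 RPKM. The highest trained Baf53b+/- animal, 2410, had 18.0 RPKM of these markers. Without the 9 libraries over 3 times the median, the Npas4 difference was 0.95 in wild type (limma adjusted p = 0.194, 5 home cage against 3 trained) and 1.37 in Baf53b+/- (limma adjusted p = 0.0601, 3 against 4). The remaining wild-type values were 0.878 to 2.23 RPKM in the home cage and 2.66 to 3.73 RPKM after training. In Baf53b+/- they were 0.724 to 1.73 and 2.87 to 6.23 RPKM. The full groups did not overlap, so parts of them cannot overlap either, and this is no further test. Without the 6 libraries over 10 times the median, the wild-type difference was 1.24 (limma adjusted p = 0.0503). The Baf53b+/- difference was then 1.46 (limma adjusted p = 0.0434). Averaged over the genotypes Npas4 passed in both settings, at 1.16 (limma adjusted p = 0.00619) without the 9 libraries and 1.35 (limma adjusted p = 0.00132) without the 6. With the choroid plexus level as a covariate over all 24 libraries, the difference was 1.25 in wild type (limma adjusted p = 0.00392) and 1.51 in Baf53b+/- (limma adjusted p = 0.000477). Leaving out any single library kept both calls.

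Npas4 varied more between animals than most early genes. Its coefficient of variation (SD as a percentage of the mean) was 47.2% in trained wild-type mice and 31.3% in trained Baf53b+/- mice. The 12 early genes listed for reference, such as Fos, Arc and Egr1, had 9.13% to 32.0% and 5.71% to 16.4% in the same groups, so all 12 were below Npas4 in each. In the home cage Npas4 had 30.9% in wild type and 37.5% in Baf53b+/-, where 10 and 11 of the 12 were lower. The level of Npas4 is low, and the lowest library held about 101 reads for it, for which counting error alone is about 9.95%.

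Npas4 differences between genotypes were small beside their error. In the home cage Npas4 was 0.24 lower in Baf53b+/- on the log2 scale (−0.24 ± 0.23, 95% interval −0.73 to 0.24, limma adjusted p = 0.999). After training the difference was −0.07 ± 0.23 (−0.56 to 0.41, limma adjusted p = 0.998). By this test 0.00807% of genes were called in each of these comparisons, 1 gene each, and that gene was Actl6b. Averaged over the conditions it was −0.16 ± 0.17, where 0.0242% of genes were called. The interaction, meaning the Baf53b+/- response less the wild-type response, was 0.17 ± 0.33 for Npas4 (−0.51 to 0.86, limma adjusted p = 0.985). By limma 0 of 12399 genes were called for the interaction, and 309 had an unadjusted p under 0.05. The interval leaves room for a response in Baf53b+/- either smaller or larger than in wild type, so equal responses are not shown.

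Arnt, the general partner, was present at a low level in every library. In wild-type home cage mice it was 6.35, 5.85, 5.99, 6.22, 5.93 and 5.66 RPKM. In trained wild-type mice it was 6.35, 6.76, 6.19, 6.24, 6.53 and 6.48 RPKM. Trained values lay mostly higher, and the groups overlapped. In Baf53b+/- home cage mice Arnt was 5.96, 5.78, 5.11, 5.69, 6.37 and 6.18 RPKM. In trained Baf53b+/- mice it was 5.67, 6.72, 6.38, 6.24, 6.88 and 6.07 RPKM. These groups overlapped more widely, and both the lowest of all 24 values, animal 2415, and the highest, animal 2429, were in Baf53b+/- mice.

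The mean of Arnt was 6.00 ± 0.250 RPKM (SD, n = 6) in wild-type home cage mice and 6.43 ± 0.209 after training, a ratio of 1.07. In Baf53b+/- it was 5.85 ± 0.441 and 6.33 ± 0.442 RPKM, a ratio of 1.08. Neither training difference passed, at 0.09 ± 0.05 in wild type (limma adjusted p = 0.473) and 0.11 ± 0.05 in Baf53b+/- (limma adjusted p = 0.397). The exact permutation test of the mean RPKM gave p = 0.0152 in wild type, 0.0606 after adjustment over the 12 tests (0.026 without the home cage animal 2402), and p = 0.0931 in Baf53b+/-. Averaged over the genotypes Arnt was 0.10 ± 0.03 higher after training (95% interval 0.03 to 0.17, limma adjusted p = 0.0951), which did not pass. That adjusted p fell to 0.0438 without the trained Baf53b+/- animal 2409, and to 0.0493 without the 6 libraries richest in choroid plexus markers. Genotype differences of Arnt, −0.04 ± 0.05 at rest and −0.02 ± 0.05 in trained mice, did not pass.

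Arnt2, the partner known as the neuronal form, was the most abundant of the 3 genes. In wild-type home cage mice it was 39.7, 37.8, 41.4, 44.8, 40.6 and 45.6 RPKM. In trained wild-type mice it was 46.5, 40.4, 45.3, 55.3, 39.9 and 44.6 RPKM. The groups overlapped, with animal 2421 above the other trained mice. In Baf53b+/- home cage mice Arnt2 was 44.0, 45.6, 59.3, 41.7, 40.6 and 40.6 RPKM. In trained Baf53b+/- mice it was 43.6, 48.4, 42.2, 47.8, 36.6 and 43.0 RPKM. Again the groups overlapped, and animal 2415 of the home cage group was the highest of the 24.

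Arnt2 means were 41.6 ± 3.02 RPKM (SD, n = 6) and 45.3 ± 5.56 RPKM in wild type, home cage and trained. They were 45.3 ± 7.12 and 43.6 ± 4.27 RPKM in Baf53b+/-. The training difference was 0.12 ± 0.09 in wild type (95% interval −0.06 to 0.30, limma adjusted p = 0.666) and −0.05 ± 0.09 in Baf53b+/- (−0.23 to 0.13, limma adjusted p = 0.888). The interaction was −0.16 ± 0.12 (−0.42 to 0.09), and genotype differences were 0.11 ± 0.09 in the home cage and −0.05 ± 0.09 after training. No comparison of Arnt2 passed. With at least about 7067 reads per library, counting error for Arnt2 is at most about 1.19%, beside a coefficient of variation of 7.24% to 15.7% between animals of a group.

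**Figure D2:**
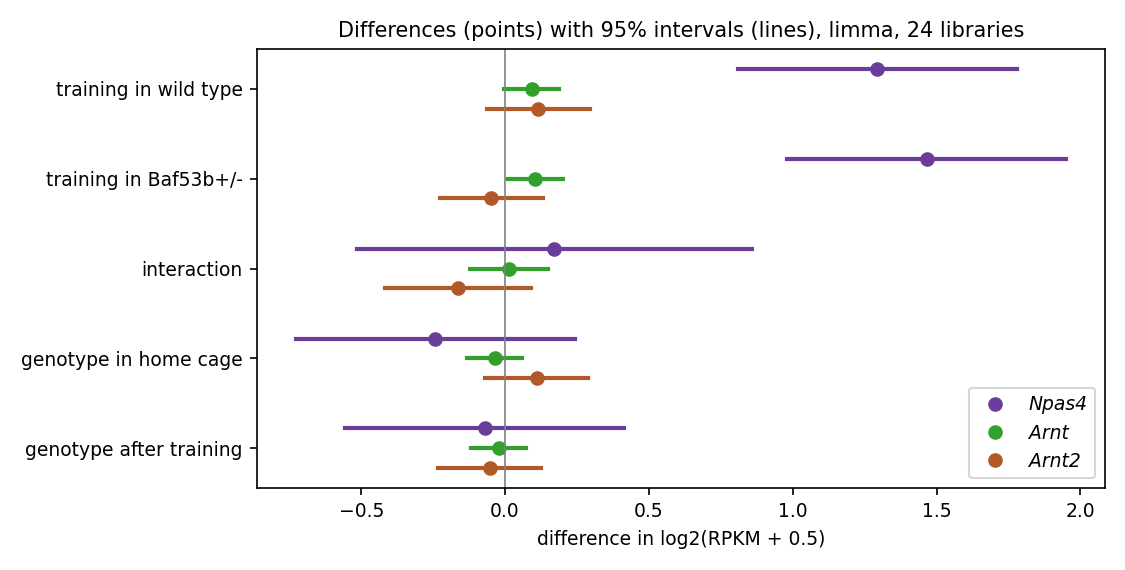
Differences in log2(RPKM + 0.5) for the 3 genes in 5 comparisons (points) with 95% intervals from limma (lines); the grey line is no difference. The Npas4 intervals for training lie above 0 in both genotypes (0.81 to 1.78 and 0.98 to 1.95), its interaction interval spans 0, and the Arnt intervals are the narrowest.

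The partners were set beside each other and beside Npas4 in each animal. Arnt2 made up 87.4%, 87.5%, 88.4% and 87.2% of the summed Arnt and Arnt2 level in wild-type home cage, wild-type trained, Baf53b+/- home cage and Baf53b+/- trained mice. Over all animals that share ran from 84.2% to 92.1%. No comparison of the share passed, and the smallest of 4 two-sided exact permutation p-values was 0.338. Npas4 was 3.15% of the summed partner level in wild-type home cage mice and 9.06% after training, and 2.34% and 8.45% in Baf53b+/- mice. Even in the animal with the most Npas4, 2436, it reached 16.6% of the partners' RNA. The log2 ratio of Npas4 to its partners rose by 1.18 in wild type (exact permutation p = 0.00433, adjusted over 4 tests 0.00866) and by 1.50 in Baf53b+/- (exact permutation p = 0.00216, adjusted 0.00866). In wild type the groups overlapped on this ratio, with trained animal 2421 at −4.30 and home cage animal 2402 at −4.09. In Baf53b+/- they did not overlap. The ratio reuses the Npas4 values tested above, so it is no separate support. These are ratios of RNA, and protein was not measured.

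Within the wider bHLH-PAS family, Arnt2 had the highest mean over the 24 libraries, 44.0 RPKM. Epas1, which encodes the hypoxia factor HIF2A, followed at 40.8 RPKM and was below Arnt2 in 16 of 24 libraries, so their order is not fixed. Next came the coactivator Ncoa1 at 31.6, the hypoxia factor Hif1a at 20.6 and the coactivator Ncoa2 at 16.3 RPKM. The clock partners Arntl and Clock were level, at 13.1 and 13.0 RPKM, with Arntl above Clock in 10 of 24 libraries. Npas2, a relative of Clock, was at 7.83 RPKM, the coactivator Ncoa3 at 7.29 and Arnt at 6.15 RPKM. Below Arnt came Npas1 at 4.67, Npas4 at 2.88 and Npas3 at 2.66 RPKM. Npas4 was above Npas3 in 11 of 24 libraries. Its place moves with training, from below Npas3 in the home cage group means to above it in the trained ones. Ahr, the aryl hydrocarbon receptor, was at 1.99 RPKM and Arntl2 at 1.27 RPKM. Hif3a at 0.552, Ahrr at 0.188 and Sim2 at 0.0682 RPKM were under the 1 RPKM needed for testing, and Sim1 was listed at 0 in 21 of 24 libraries.

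Npas4 was the 1 gene of this family that passed after training. Of the 12 factors on its side of the pair, 8 were tested and Npas4 alone rose in each genotype. Of the 4 partner genes, Arnt, Arnt2, Arntl and Arntl2, all were tested and 0 passed in either genotype. Of the 3 coactivators 0 passed in either genotype. Over all genes tested 1.08% were called in wild type and 1.03% in Baf53b+/-, so a short list with none called is not unusual. The median training difference of the 8 factors was 0.013 in wild type and −0.018 in Baf53b+/-, beside 0.011 and −0.001 over all genes tested. The closest of the partner genes was Arntl in Baf53b+/-, at 0.14 ± 0.05 (limma adjusted p = 0.317).

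**Figure D3:**
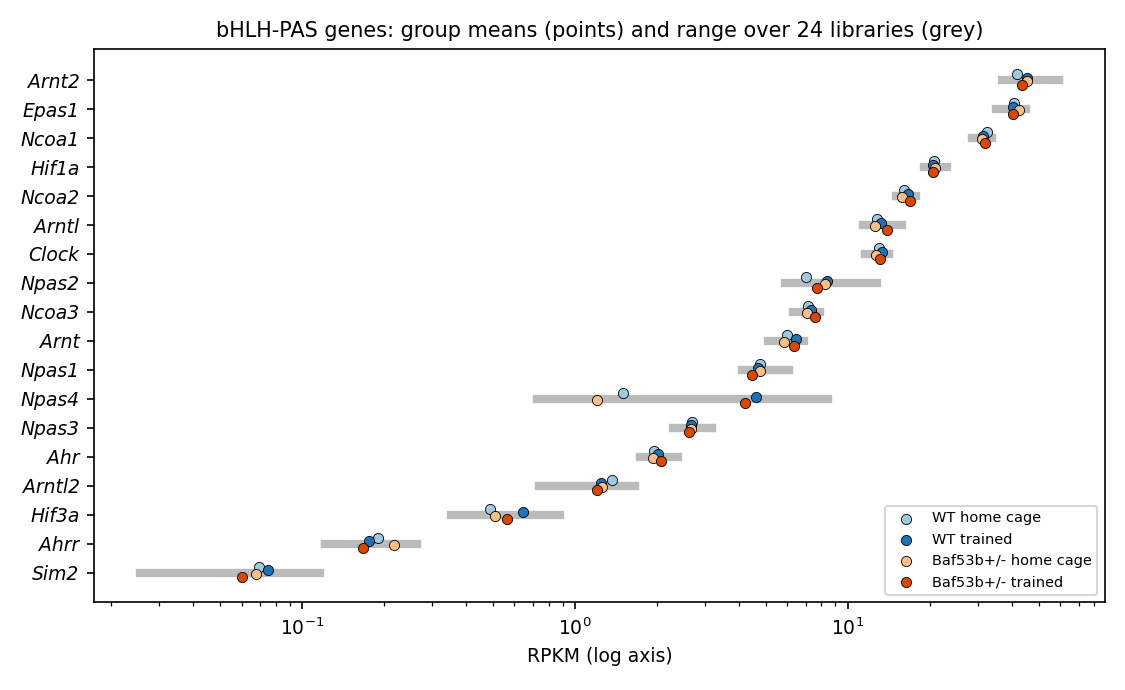
Mean RPKM of bHLH-PAS genes in the 4 groups (points) and the range over 24 libraries (grey bars), on a log axis; Sim1, listed at 0 in 21 libraries, is left out. Npas4 spans 0.724 to 8.48 RPKM with home cage and trained means apart, whereas the group means of Arnt2, Epas1, Hif1a and Arnt lie on top of each other.

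Most genes known to be linked to NPAS4 in neurons did not pass at this time. All 7 listed were tested, and 1 rose in wild type and 1 in Baf53b+/-, in each case Csrnp1, a nuclear protein gene that is itself quickly induced. Over all genes tested 1.08% and 1.03% were called, and in 1.24% and 1.33% the groups did not overlap. Csrnp1 went from 2.02 ± 0.152 to 3.15 ± 0.449 RPKM (SD, n = 6) in wild type, a difference of 0.53 ± 0.07 (limma adjusted p = 9.47e-05). In Baf53b+/- it went from 1.92 ± 0.213 to 3.13 ± 0.273 RPKM, a difference of 0.58 ± 0.07 (limma adjusted p = 3.01e-05). Trained and home cage values of Csrnp1 did not overlap in either genotype, and both calls of Csrnp1 held in all 37 alternative settings. The 7 genes had a median training difference of 0.085 in wild type and 0.190 in Baf53b+/-, beside 0.011 and −0.001 over all genes tested.

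Bdnf, the growth factor gene best known as a target of NPAS4, was 10.1 ± 0.468 RPKM in wild-type home cage mice and 10.8 ± 1.22 after training. In Baf53b+/- Bdnf was 8.97 ± 1.18 and 10.8 ± 0.390 RPKM (SD, n = 6). The differences were 0.09 ± 0.07 (limma adjusted p = 0.695) and 0.27 ± 0.07 (limma adjusted p = 0.0689), and the average of both passed at 0.18 ± 0.05 (limma adjusted p = 0.0394). Nptx2, a secreted synaptic pentraxin gene, was 11.5 ± 1.19 and 12.8 ± 2.69 RPKM in wild type and 11.4 ± 1.12 and 15.4 ± 1.79 RPKM in Baf53b+/-. Its differences were 0.13 ± 0.11 (limma adjusted p = 0.711) and 0.41 ± 0.11 (limma adjusted p = 0.0609), and the average passed at 0.27 ± 0.07 (limma adjusted p = 0.0391). In the average 4.17% of all genes tested were called. For both genes the trained Baf53b+/- values lay wholly above the home cage ones, and the wild-type groups overlapped, beside 1.33% of all genes tested whose Baf53b+/- groups did not overlap. Interactions did not pass for either, at 0.18 ± 0.10 for Bdnf and 0.29 ± 0.15 for Nptx2 (limma adjusted p = 0.985 for each). The call on the average was lost in 19 of 37 alternative settings for Bdnf and 20 of 37 for Nptx2, 14 of them for each with 1 library left out. The Baf53b+/- difference, not called in the main fit, passed in 2 of 38 settings for Bdnf and 5 of 38 for Nptx2. Plk2, Syt10, Scg2 and Mdm2 did not pass in any training comparison.

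Most genes listed as regulators that act before Npas4 in the activity pathway did not pass by RNA level. The activity of their proteins was not measured. Of 14 listed, 0 passed in wild type and 1, Srf, rose in Baf53b+/-, beside 1.08% and 1.03% of all genes tested. Srf encodes serum response factor, which acts at early gene promoters. It was 17.5 ± 0.949 and 19.4 ± 1.35 RPKM in wild type (difference 0.14 ± 0.04, limma adjusted p = 0.103). In Baf53b+/- Srf was 17.5 ± 0.401 and 20.0 ± 0.831 RPKM (0.19 ± 0.04, limma adjusted p = 0.0171). The averaged response of Srf passed at 0.16 ± 0.03 (limma adjusted p = 0.000889), where 4.17% of all genes tested were called. Hdac3, a histone deacetylase gene, fell by 0.08 on the log2 scale in the average (SE 0.02, limma adjusted p = 0.0182), from means of 32.6 and 33.3 to 31.3 and 30.9 RPKM. Both the Baf53b+/- call of Srf and the averaged call of Hdac3 were lost without the libraries rich in choroid plexus markers (either threshold), and that of Srf also without animal 2414. The averaged call of Srf was lost without the 9 libraries over 3 times the median. Over all settings, these with fewer animals included, the Srf difference stayed between 0.17 and 0.22 in Baf53b+/- and between 0.14 and 0.18 in the average, and that of Hdac3 between −0.11 and −0.07 in the average.

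ARNT also works with the hypoxia factors and the aryl hydrocarbon receptor, so genes known as their targets were listed. Of 14 hypoxia genes 12 were tested, and 3 rose in wild type, Ddit4, P4ha1 and Slc2a1, and 2 in Baf53b+/-, beside 1.08% and 1.03% of all genes tested. Ddit4, which restrains the growth kinase mTOR, rose by 0.36 ± 0.07 in wild type (limma adjusted p = 0.0104) and by 0.47 ± 0.07 in Baf53b+/- (limma adjusted p = 0.000593). P4ha1, a collagen prolyl hydroxylase gene, rose by 0.23 ± 0.05 in wild type (limma adjusted p = 0.0178) and 0.24 ± 0.05 in Baf53b+/- (limma adjusted p = 0.0144). Slc2a1, the glucose transporter of the blood-brain barrier, rose by 0.19 ± 0.05 in wild type (limma adjusted p = 0.0492), a call lost in 25 of 38 settings, and did not pass in Baf53b+/- (0.16 ± 0.05, limma adjusted p = 0.116). The wild-type calls of Ddit4 and P4ha1 and the Baf53b+/- call of P4ha1 were lost without the libraries rich in choroid plexus markers, where fewer animals are left, and the wild-type call of P4ha1 also without animal 2425 or 2430. Over all settings the Ddit4 difference in wild type stayed between 0.28 and 0.41, and that of P4ha1 between 0.20 and 0.27 in wild type and between 0.21 and 0.26 in Baf53b+/-. The other 9, among them Vegfa, Pgk1 and Ldha, did not pass. Of 6 aryl hydrocarbon receptor targets 2 were tested, and Tiparp, an ADP-ribosyltransferase gene, rose by 0.66 ± 0.08 in wild type (limma adjusted p = 8.06e-06) and 0.62 ± 0.08 in Baf53b+/- (limma adjusted p = 2.79e-05). Nqo1 did not pass. Several of these genes also respond to other signals, which the data do not separate.

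**Figure D4:**
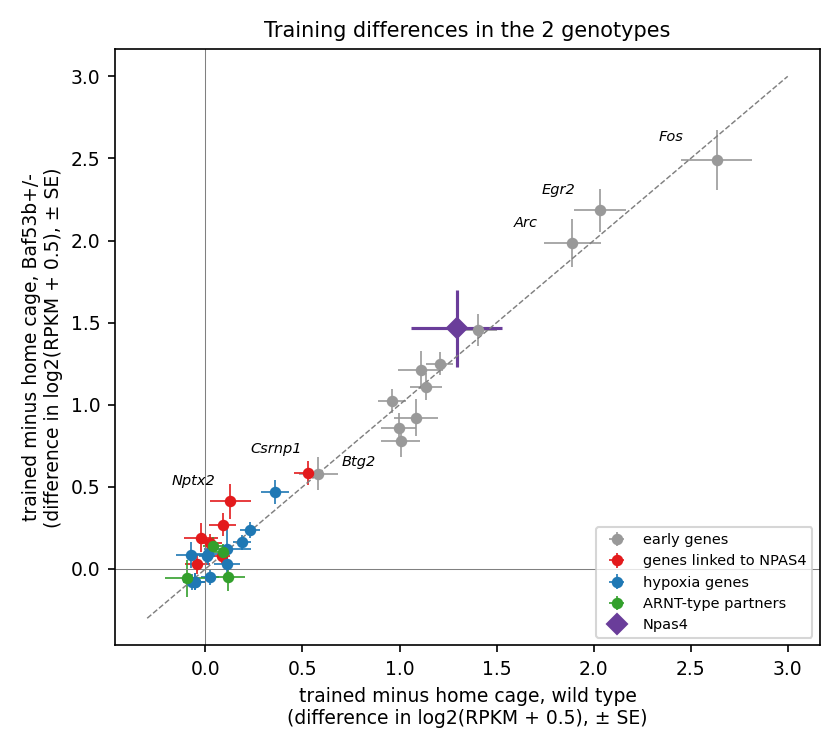
Training difference in wild type (horizontal) against that in Baf53b+/- (vertical), both in log2(RPKM + 0.5) with SE bars, for Npas4 and genes of 4 lists; the dashed line is equality. Npas4 lies at 1.29 and 1.47 among the early genes, Csrnp1 at 0.53 and 0.58, and the ARNT-type partners near 0.

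All 12 early genes listed for reference rose in both genotypes, beside 1.08% and 1.03% of all genes tested that were called. The list was chosen with earlier results of these data known, so this is no independent check. Their median differences were 1.12 and 1.16. Npas4, at 1.29 and 1.47, lay among them, below Fos (2.63 ± 0.18 and 2.49 ± 0.18) and Arc (1.89 ± 0.15 and 1.98 ± 0.15). The wild-type call of Btg2 was lost without libraries over 3 times the median choroid plexus level (limma adjusted p = 0.0966). Its Baf53b+/- call was lost without those over 10 times (limma adjusted p = 0.111). Over all settings the Btg2 difference stayed between 0.48 and 0.64 in wild type and between 0.52 and 0.63 in Baf53b+/-. Over all 24 libraries the genes most like Npas4 in log2(RPKM + 0.5) were Fos (Pearson r of 0.912), Egr4 (0.909), Dusp1 (0.908), Egr2 (0.907), Fosb (0.902), Ier2 (0.898), Btg2 (0.894) and Junb (0.890). All of these are on the reference list, and their likeness includes the training difference that they share. Once group means were taken out, the genes most like Npas4 over the 24 libraries were Ftl1 (0.684), Nt5c3l (0.680), Cdc34 (0.674), Nkiras2 (0.667) and Tmem179b (0.654), and no early gene was among the first 5.

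The other 2 genes had different neighbours. With group means taken out, Arnt was most like Ing4 (0.763), Arl6ip5 (0.734), Fam178a (0.731), Trmu (0.730) and Slc15a4 (0.706). Arnt2 was most like Rims2 (0.929), Fbxl2 (0.929), Nov (0.919), Gabra3 (0.904) and Caln1 (0.903), all with a higher r than any neighbour of Npas4 or Arnt found in the same way. These are descriptions over 24 libraries that share depth and dissection, and the 5 were picked from 12399 genes.

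Arnt2 moved with the hippocampal subfields in the sample. The measure was the mean log2 level of dentate gyrus markers (Prox1, C1ql2 and Dsp) minus that of CA1 markers (Wfs1, Fibcd1 and Pou3f1). With group means taken out, Arnt2 had a Pearson r of −0.744 with it over 24 animals (permutation p = 0.00153, adjusted over 9 relations 0.0138) and a Spearman rho of −0.577 (permutation p = 0.0057, adjusted 0.0457). The 9 relations were not among the planned tests, so their p-values are descriptive. Without the 2 animals farthest out on the subfield measure, 2415 and 2418, the r of Arnt2 was −0.578. Within the groups of 6 animals r was −0.859, −0.980 and −0.939 in wild-type home cage, wild-type trained and Baf53b+/- home cage mice, and 0.042 in Baf53b+/- trained mice. The relation thus did not hold in the last group. Animal 2415 had the lowest dentate minus CA1 level of all, −1.93, with the highest Arnt2 and the lowest Arnt, and animal 2421 was next on both Arnt2 and the marker measure. In whole tissue, fewer cells of a type and less RNA per cell cannot be told apart.

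Arnt and Arnt2 ran opposite to each other between animals, with r = −0.582 after group means were taken out (permutation p = 0.00973, adjusted 0.0436) and rho = −0.521 (permutation p = 0.0152, adjusted 0.0457). Without animals 2415 and 2421 r was −0.391, and within the 4 groups it ranged from −0.905 to −0.178. Arnt2 also fell with choroid plexus markers (r = −0.531, permutation p = 0.0145, adjusted 0.0436, rho = −0.544, and −0.524 without the 2 farthest animals). Within groups that r was between −0.735 and −0.103. For Npas4, r was 0.081 with Arnt, 0.066 with Arnt2 and −0.006 with the subfield measure, and none of these passed. Within groups these r ranged from −0.26 to 0.72 with Arnt, −0.30 to 0.44 with Arnt2 and −0.64 to 0.61 with the subfield measure. Without the 2 farthest animals of each relation they were 0.41, 0.11 and 0.27, so an absence of relation is not shown. The r of Npas4 with choroid plexus markers was 0.354 (permutation p = 0.1003, adjusted 0.226), with rho 0.364. Within groups that r was between 0.20 and 0.63, highest in trained wild-type mice, and it was 0.28 without the 2 farthest animals.

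**Figure D5:**
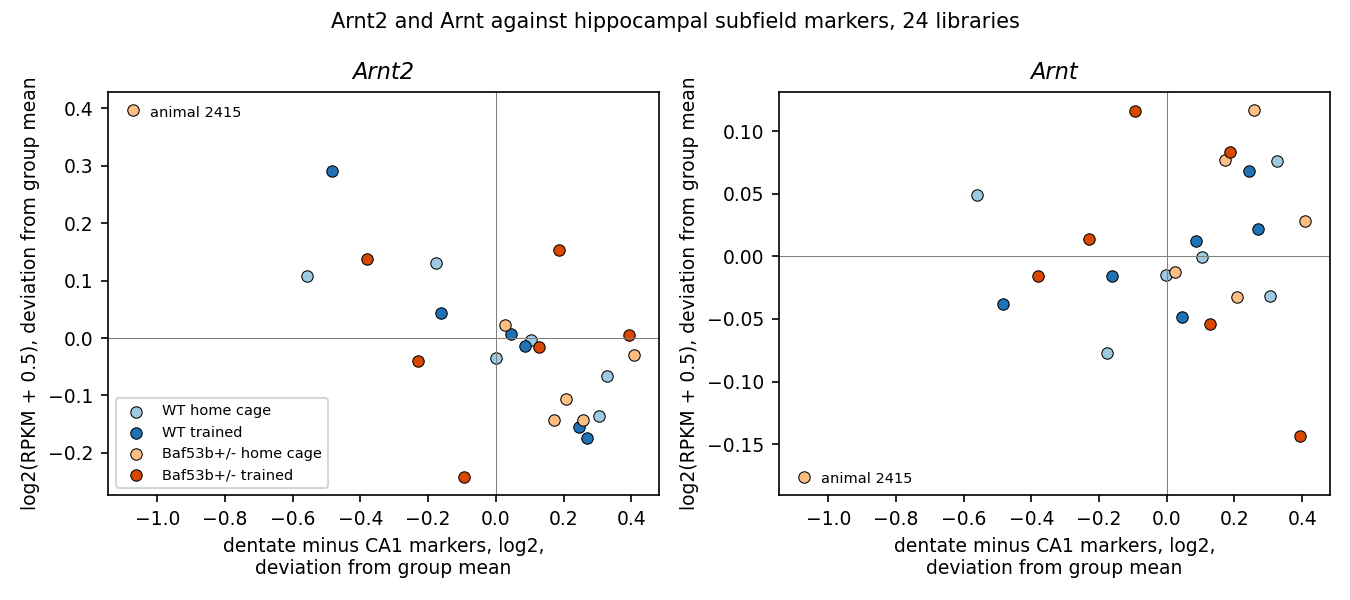
Deviation of Arnt2 (left) and Arnt (right) from their group means in log2(RPKM + 0.5), against the deviation of the dentate minus CA1 marker level (log2), for 24 libraries coloured by group. Arnt2 falls as the marker level rises (r = −0.744), Arnt shows r = 0.383 (permutation p = 0.132), and animal 2415 lies far out in both panels.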

How the data were processed

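The authors deposited 1 table of RPKM values for 19661 genes, with mm9 positions and 1 column per library, and replicates were not pooled. Per the labels' protocols, RNA from both dorsal hippocampi went into TruSeq RNA v2 libraries, which do not mark strand, so overlapping genes on opposite strands can share reads. Per the submitters' processing notes, CASAVA 1.8.2 and Bowtie 0.12.8 were used. No source used here names the annotation or the read total behind the RPKM. The labels describe 4 pooled multiplexes but not which library was in which, so no batch was fitted. The number in each label was taken as the animal's, and p-values measure the spread between these libraries.

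Groups came from the labels. RPKM values went into log2 after adding a pseudocount of 0.5, and the 12399 genes averaging 1 RPKM or more were fitted in a single 4-group model with limma 3.58.1 (R 4.3.3, trend and robust settings), with Benjamini-Hochberg adjusted p under 0.05 over all genes tested. "Rose" and "fell" refer to this test. Signs are trained minus home cage and Baf53b+/- minus wild type. Single values were compared with two-sided exact permutation tests over 924 splits (scipy 1.17.1), and relations with permutations within groups. The fit was tested on simulated data. Depth was estimated from 603 single-exon genes, in which 71.7% to 79.4% of low values were within 0.05 reads of a whole number, and the steps at other totals gave a median of at most 6.70%. Approximate reads per gene use GENCODE transcript lengths. Alternatives covered the pseudocount, filters, scaling, the model, sex and marker covariates, and libraries left out. The covariate for dentate minus CA1 markers and the 10-fold choroid plexus threshold were chosen after seeing the data.

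The 3 genes and all gene lists were chosen with earlier results of these data known. Named genes are the 3 members in every sample, the bHLH-PAS genes by level, up to 4 passing members or else up to 2 by p of each other list, Fos, Arc, Egr1, Bdnf and Actl6b, and the closest genes by Pearson r. Members of the NPAS4-linked and hypoxia lists beyond these are named to account for the whole list. Of the marker lists, 3 blood genes (Hbb-b1, Hba-a1 and Hba-a2) were not matched. No member of the lists for neurons, subfields, choroid plexus, oligodendrocytes, astrocytes, microglia, endothelial and mural cells, thalamus and striatum, or blood passed in any of the 7 comparisons. Promoter sequences are those of RefSeq for GRCm38.p6, and all 3 genes matched by symbol.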

Additional observations from a re-analysis of the deposited data

Results flagged for a closer look

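Of 20 groups of 6 values examined, 2 held a value whose distance to its nearest neighbour was large for the group's range, and chance alone gives this in about 1 in 20 groups. Arnt2 in the Baf53b+/- home cage animal 2415 was 59.3 RPKM, with the next highest animal of that group at 45.6 RPKM. The share of Arnt2 in the summed Arnt and Arnt2 level in the trained Baf53b+/- animal 2429 was 84.2%, the lowest of its group. That animal had the lowest Arnt2 of the 24, 36.6 RPKM, and the highest Arnt, 6.88 RPKM.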

How the results depend on the processing

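No paired analysis was possible because the animal numbers in the labels differ between all groups. Of 326 values for the 3 genes and their ratios under alternatives other than leaving out 1 library, 310 kept direction and call. The Npas4 training call was lost without libraries over 3 times the median choroid plexus level (0.95 in wild type, 1.37 in Baf53b+/-) and in wild type without those over 10 times (1.24). Over 3 times, the mean differences of 1.76 and 2.74 RPKM and the ratio differences of 0.80 and 1.45 also lost their calls, with too few animals left to pass after adjustment. That setting turned the small Npas4 genotype difference after training positive (0.21 by limma, 0.72 RPKM, and 0.25 for the ratio), and the 10-fold setting did so for Arnt2 (0.0073). The Arnt2 training difference in Baf53b+/- turned to 0.014 with array weights and 0.0091 with the dentate covariate, and the Arnt interaction to −0.0012 and −0.019. The averaged Arnt difference passed in the 10-fold setting (0.13). The 134 and 128 genes called for training in wild type and Baf53b+/- became 35 and 32 without the 9 libraries, 65 and 51 without the 6, 75 and 85 with only the 2 groups compared, and 83 and 84 with a filter at 5 RPKM, which left Npas4 untested. The 517 called in the average became 129, 262 and 339 without the 9, without the 6 and at 5 RPKM. Other scalings moved no library by more than 0.0436 on the log2 scale.

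Leaving out each library in turn kept the Npas4 training difference between 1.11 and 1.41 in wild type and between 1.35 and 1.56 in Baf53b+/-, always called. By limma, values near 0 crossed it. Npas4 after training ranged from −0.19 to 0.11 between genotypes, Arnt from −0.046 to 0.0060 and Arnt2 from −0.088 to 0.0049. Arnt2 ranged from −0.078 to 0.032 for training in Baf53b+/- and from −0.011 to 0.058 for genotype averaged over conditions, and the Arnt interaction from −0.022 to 0.042. The averaged Arnt training difference ranged from 0.081 to 0.113. In exact permutation tests on RPKM, genotype differences after training ranged from −0.812 to 0.363 for Npas4, from −0.21 to 0.033 for Arnt and from −2.84 to 0.243 for Arnt2. Training differences in RPKM ranged from 0.358 to 0.496 for Arnt in wild type and from −2.65 to 1.09 for Arnt2 in Baf53b+/-. The Arnt2 share ranged from −0.383 to 0.452 points for training in wild type and from −0.577 to 0.391 for genotype after training. The ratio of Npas4 to its partners ranged from −0.19 to 0.163 for genotype after training and from −0.45 to −0.23 in the home cage, where the genotype difference passed without the Baf53b+/- animal 2424 (exact permutation, adjusted p = 0.0404).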
